A study of Homo sapiens with 16 samples.

Results

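The 43 genes described here encode proteins of mitosis and DNA replication, and they were taken by gene symbol from the 62710 genes of the count files. Their levels were read in 16 RNA-seq libraries from pools of 4 B cell lymphoma lines, with 4 libraries in each of 4 groups. The comparisons ask how high the proliferation genes stood in each pool and whether they were lower in the AAVS pools that had received IL4. All 43 symbols were found, and all 43 genes passed the filter on low counts in each of the 5 comparisons. By role, 30 of them act in mitosis and 13 in DNA replication.

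Each line had been infected as a pool with a lentiviral vector carrying Cas9 and 4 guides. The guides targeted either CREBBP, the gene of a histone acetyltransferase often mutated in follicular lymphoma, or AAVS, an integration site used as a control. The labels write the genotypes as CREBBP -/- and AAVS -/-, yet the cells are targeted pools and not clones, and no group is an uninfected parental line. Both kinds of pool were cultured for 4 h either without IL4, called baseline, or with 10 ng/ml of IL4, a cytokine that signals through JAK kinases and STAT6. Every line gave 1 library in each of the 4 groups (AAVS or CREBBP pool, baseline or IL4), so the replicate is the line. SUDHL4 is line 1 and DOHH2 is line 4, while the labels contradict each other on which of line 2 and line 3 is OCILY7 and which is SUDHL10.

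Cells that divide copy their DNA in S phase and separate the copies in mitosis, and the transcripts of these tasks peak at different times of the cycle. Replication genes are switched on by E2F factors at the entry into S phase, and include the MCM subunits that form the DNA helicase, the sliding clamp PCNA and the enzymes that make nucleotides. Mitosis genes rise later, in G2 and M phase, under the DREAM and MuvB complexes that bind a CHR element, often with the factor NF-Y at nearby CCAAT boxes. Together such genes are widely used to gauge how many cells of a sample are cycling. In a bulk sample, fewer cycling cells and less of these transcripts per cell cannot be told apart.

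Promoter sequences from RefSeq (GRCh38.p14), spanning 250 bases before to 50 after a listed start site, were matched to 35 of the 43 genes. The first listed window was used for each gene. For some genes, such as NUF2, that site lies apart from the gene start in GENCODE. The motifs were searched on either strand: TTTGAA for CHR, CCAAT for the NF-Y box and TTTNNCGC for E2F. A CHR was present in 18 of the 25 mitosis promoters and in 0 of the 10 replication promoters, against 15.2% of all 35116 promoters of the table. An E2F motif was present in 3 of the 25 mitosis promoters and in 8 of the 10 replication promoters, against 6.89% of all promoters. A CCAAT box was found in 19 mitosis and 6 replication promoters, against 34.6% of all. CHR and CCAAT occurred together in 14 mitosis promoters, against 5.9% of all, and matches of different motifs overlapped in 2 of the 35 windows. A match describes the letters and is not evidence of binding.

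The windows from 180 bases before to 20 after the start are shown for 3 mitosis genes and 2 replication genes, because CCNB2, NDC80, MCM6 and PCNA passed the test in a comparison below and MKI67 is the usual proliferation marker. Capitals mark the letters of any of the motifs on either strand. The CCNB2 window holds 3 CCAAT boxes and a CHR close to the start, the NDC80 window holds a CHR alone, and the MKI67 window holds 2 CHRs, one of which runs into a reversed CCAAT box, and a further reversed box upstream. Besides 2 reversed CCAAT boxes the MCM6 window holds E2F letters at 2 places, where matches on both strands overlap, so that each run counts as 2 of the 4 matches. The PCNA window holds 1 E2F match among 3 CCAAT boxes.
CCNB2, chr15:59104966-59105165, plus strand: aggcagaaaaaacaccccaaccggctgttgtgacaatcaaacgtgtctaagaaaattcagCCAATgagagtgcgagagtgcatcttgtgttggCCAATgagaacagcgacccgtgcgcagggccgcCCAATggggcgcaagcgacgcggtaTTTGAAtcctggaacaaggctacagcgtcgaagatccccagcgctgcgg
NDC80, chr18:2571377-2571576, plus strand: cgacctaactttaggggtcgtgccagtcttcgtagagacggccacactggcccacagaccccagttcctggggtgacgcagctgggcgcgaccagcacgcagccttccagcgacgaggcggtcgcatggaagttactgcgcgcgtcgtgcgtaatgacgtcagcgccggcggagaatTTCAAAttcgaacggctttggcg
MKI67, chr10:128126404-128126603, minus strand: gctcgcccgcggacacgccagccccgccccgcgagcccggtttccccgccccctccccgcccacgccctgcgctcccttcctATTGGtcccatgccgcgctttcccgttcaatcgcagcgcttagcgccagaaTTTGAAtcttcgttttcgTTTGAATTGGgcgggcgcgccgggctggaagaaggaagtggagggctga
MCM6, chr2:135876424-135876623, minus strand: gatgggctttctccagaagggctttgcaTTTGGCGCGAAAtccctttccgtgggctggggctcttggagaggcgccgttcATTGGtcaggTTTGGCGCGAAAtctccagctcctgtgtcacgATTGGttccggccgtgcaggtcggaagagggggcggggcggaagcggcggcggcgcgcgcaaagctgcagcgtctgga
PCNA, chr20:5126603-5126802, minus strand: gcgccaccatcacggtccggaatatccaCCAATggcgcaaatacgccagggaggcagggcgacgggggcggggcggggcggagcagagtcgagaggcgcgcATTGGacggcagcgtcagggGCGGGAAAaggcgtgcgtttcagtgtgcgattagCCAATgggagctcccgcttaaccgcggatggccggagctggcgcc

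Depth ranged from 19649735 to 61981976 counts per library, and the AAVS IL4 libraries held 25640336, 33941291, 19649735 and 47716763 counts in lines 1 to 4. The 43 genes took between 0.210% and 1.12% of a library's counts. Levels below are normalised CPM, the CPM of a gene scaled by TMM factors over all 16 libraries. CREBBP RNA was present in all 16 libraries. Its level was 184 to 392 in AAVS baseline, 180 to 335 in AAVS IL4, 183 to 291 in CREBBP baseline and 96.8 to 253 in CREBBP IL4, with log2 fold changes of -0.11 (SE 0.21, adjusted p = 0.851) at baseline and -0.51 (SE 0.23, adjusted p = 0.218) with IL4 in edgeR's quasi-likelihood test. RNA level does not check loss of the protein, which the study reported from immunoblots of the targeted pools. Line 2 stood apart from the others. Counting genes that reached 10 CPM in one library and stayed under 0.5 CPM in another of its group, line 2 differed from each other line by 149 to 235 genes and lines 1, 3 and 4 from each other by 1 to 17, with the AAVS IL4 libraries left aside. The p-values measure the spread between the 4 lines as labelled. The n of 4 rests on the lines being distinct, and 1 to 17 genes is little to tell lines 1, 3 and 4 apart. Whether these are distinct lines was not tested further.

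The AAVS IL4 libraries differed from the other 12 in genes used as markers of cell types, among them naive or memory B cells and T cells. The source of these transcripts was not tested. IGHM, the constant region of IgM, was at 875, 672, 1453 and 122 normalised CPM in AAVS IL4 lines 1 to 4 and at 0.0779 or less elsewhere, and the adhesion receptor CD44 was at 419.5, 63.7, 799 and 139.95 there and at 0.653 or less elsewhere. Summed over 9 markers of naive or memory B cells the level was 560 to 3217 in AAVS IL4 and 69.1 to 407 in the other 12 libraries, and 6 of the 9 were higher in all 4 AAVS IL4 libraries than in any other. The 13 T cell markers summed to 38.7 to 206 against 10.6 to 66.6, with 9 of 13 higher in all 4. The 6 NK cell markers summed to 4.87 to 27.7 against 0.551 to 1.99, with 3 of 6 higher in all 4, and the 6 erythroid and platelet markers to 3.47 to 17.5 against 0.0224 to 1.25, again with 3 of 6. For 7 plasma cell markers the sums were 369 to 1897 against 120 to 976, with 3 of 7 higher in all 4. Monocyte or macrophage markers summed to 5.57 to 20.8 against 0.550 to 4.59, with 1 of 9 higher in all 4, and MARCO was at 0 in all 16 libraries. Among defining markers, LYZ of monocytes was at 2.42 to 13.1 in AAVS IL4 and at 0.0441 or less elsewhere, while CD14 was at 1.08 or less in every library. HBB of red cells was at 1.54 to 9.08 against 0.894 or less, and CD3E of T cells at 2.10 to 19.8 against 0.447 to 2.44. Stroma and endothelium markers overlapped, at 2.92 to 32.9 against 0.165 to 43.3. The 8 B lineage markers were present throughout, at 2587 to 4569 against 3068 to 6089, as were the 8 germinal centre markers, at 766 to 1339 against 1028 to 1788. How many of all genes were higher in all 4 AAVS IL4 libraries than in the other 12 was not counted. Against the AAVS baseline libraries alone, 5.84% of all genes tested lay wholly higher in AAVS IL4. The part of these markers in the results on the 43 genes was not tested.

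In the AAVS pools without IL4, the level per kb of exon ranged over the genes from 99.6 normalised CPM per kb for PCNA, 89.8 for MKI67, 83.3 for MCM7 and 71.7 for TOP2A down to 8.72 for NUF2, 3.51 for CCNE1 and 3.23 for CCNE2. CCNE1 and CCNE2, the cyclins that start S phase, were thus far below the clamp and the helicase per length. The lowest count of any of the 43 genes in any library was 31, and the highest was 99368.

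The mean log2 level of the 43 genes was 6.71 ± 0.40 (SD, n = 4) in AAVS baseline, 5.96 ± 0.86 in AAVS IL4, 7.19 ± 0.16 in CREBBP baseline and 7.29 ± 0.21 in CREBBP IL4. In lines 1 to 4 it was 6.32, 7.25, 6.71 and 6.56 in AAVS baseline and 5.71, 6.84, 4.88 and 6.41 in AAVS IL4. The CREBBP pools were at 7.03, 7.24, 7.09 and 7.39 at baseline and at 7.0001, 7.48, 7.31 and 7.37 with IL4. The level was thus lower with IL4 in each AAVS pool, most in line 3 and least in line 4, and the CREBBP pools lay close together in both states. As summed normalised CPM, AAVS IL4 line 3 held 1784, against 6792 for the same pool at baseline and 10101 for CREBBP IL4 line 3. Of the 43 genes, 41 had their lowest value of all 16 libraries in AAVS IL4 line 3, and 37 had their second lowest in AAVS IL4 line 1. The highest value lay in a CREBBP library for 38 genes. These counts were not made over all genes, so whether they are particular to the 43 was not tested.

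**Figure D1:**
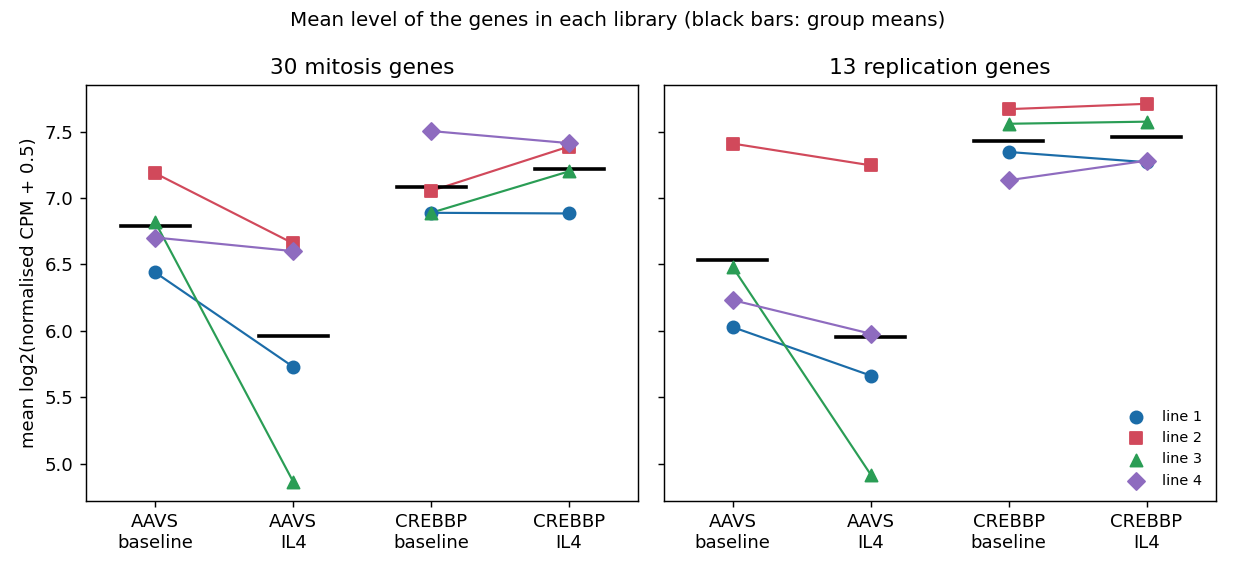
Mean log2 level of the 30 mitosis genes and the 13 replication genes in each of the 16 libraries (y axis, log2 of normalised CPM + 0.5; x axis, group; symbols, lines; black bars, group means over 4 libraries; coloured lines join baseline and IL4 of a pool). The AAVS IL4 library of line 3 is lowest in both panels, line 2 is the highest AAVS pool in both states, and for the replication genes the 4 CREBBP pools at baseline lie above AAVS lines 1, 3 and 4.

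IL4 in the AAVS pools was compared with baseline. No gene of the 43 passed the test, although all 43 log2 fold changes were below 0, from -1.09 to -0.17 with a median of -0.67, a 1.59-fold lower level. By edgeR's quasi-likelihood test 0 were called at an adjusted p under 0.05, where 0.0148% of the 20310 genes tested were called lower, 2.39% higher and 2.4% in either direction, and the smallest adjusted p among the 43 was 0.18. At an unadjusted p under 0.05, 18 of the 43 were lower, against 3.63% of all genes, and 28 of the 43 were lower in 4 of 4 lines, against 14.5%. DESeq2's Wald test called 2 lower, against 1.27% of all genes, ASPM (adjusted p = 0.0191) and the kinetochore motor CENPE (adjusted p = 0.0388), the latter named after its values were seen. For 0 of the 43 did the AAVS IL4 values all lie below the AAVS baseline values, against 1.22% of all genes, and for 0 all above, against 5.84%. The median over all genes tested was 0.01. The small RNAs RN7SK, RN7SL1 and RN7SL2 together took 5.64%, 5.09%, 6.31% and 6.87% of the counts in AAVS baseline lines 1 to 4 and 7.74%, 6.97%, 10.7% and 7.12% in AAVS IL4, a higher share with IL4 in 4 of 4 lines. Over all 16 libraries the share ran from 4.41% to 18.1%, the highest in CREBBP IL4 line 2. Its part in the result was not tested.

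The size of the difference varied with the line. The median log2 difference of the 43 genes was -0.66 in line 1, -0.43 in line 2, -1.79 in line 3 and -0.14 in line 4. In the same order the naive or memory B cell markers summed to 1922, 856, 3217 and 560 in the AAVS IL4 libraries, and the T cell markers to 116, 88.7, 206 and 38.7. Line 3, with the highest marker sums and the lowest depth, had the largest difference, and line 4, with the lowest sums and the highest AAVS IL4 depth, had the smallest. Depth rose in the order of lines 3, 1, 2 and 4, in which both marker sums fell, so depth and markers cannot be told apart here. The part of either in the difference was not tested. Without line 3 the fitted median was -0.41, and without lines 1 and 3, a choice made after seeing the data, it was -0.28.

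**Figure D2:**
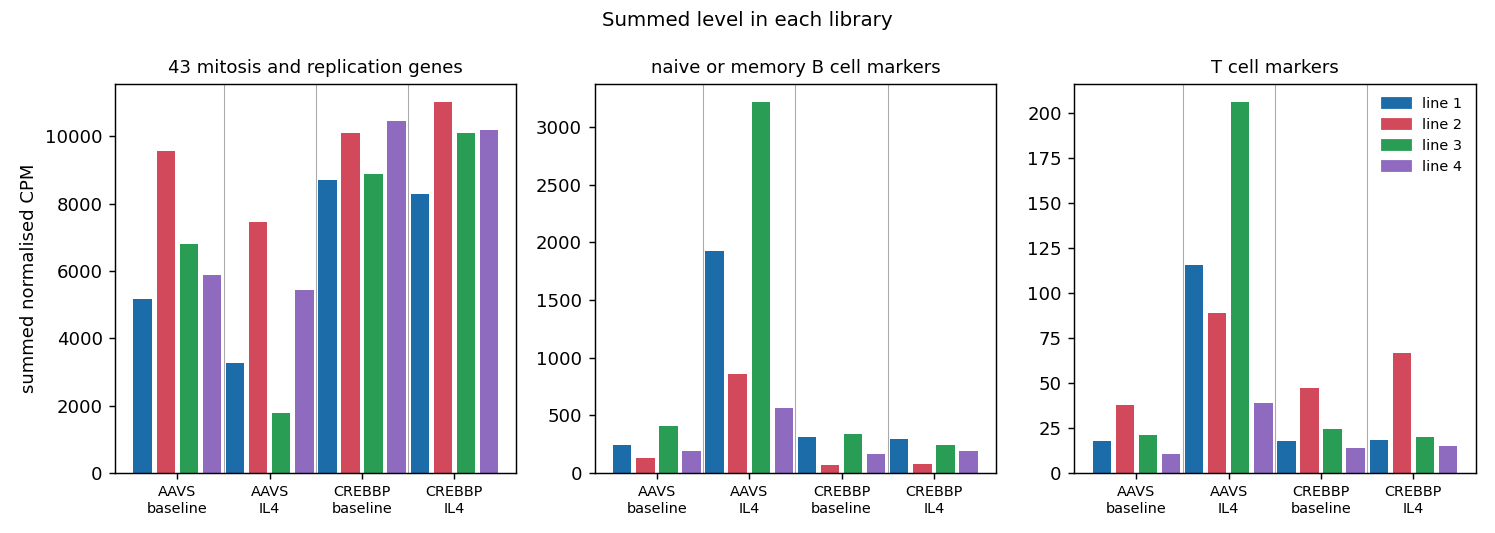
Summed normalised CPM (y axis) of the 43 mitosis and replication genes, of 9 naive or memory B cell markers and of 13 T cell markers in each library (bars, coloured by line; x axis, group). Within the AAVS IL4 group, line 3 has the lowest sum of the 43 genes, 1784, and the highest marker sums, 3217 and 206.

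Among the mitotic cyclins and CDK1, the kinase they activate, values in AAVS lines 1 to 4 went from 57.4, 87.1, 43.4 and 96.2 normalised CPM at baseline to 29.8, 68.2, 13.7 and 81.2 with IL4 for CDK1 (log2 fold change -0.72, SE 0.25, adjusted p = 0.253). CCNA2, which serves both S phase and mitosis, had the largest difference of this role, from 108, 197, 132 and 108 to 62.3, 139, 30.6 and 98.2 (-0.80, SE 0.32, adjusted p = 0.296). CCNB1, the main mitotic cyclin, went from 105, 174, 126 and 78.4 to 63.8, 117, 36.1 and 82.7 (-0.67, SE 0.30, adjusted p = 0.328). The groups overlapped for each of these genes, and CCNB1 of line 4 was slightly higher with IL4.

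Among the mitotic kinases and the anaphase-promoting machinery the largest differences were those of PLK1 and UBE2C. PLK1, a kinase of mitotic entry and spindle assembly, was at 144, 256, 226 and 85.9 normalised CPM at baseline and at 86.4, 184, 34.9 and 87.9 with IL4 (log2 fold change -0.86, SE 0.43, adjusted p = 0.376). UBE2C, the ubiquitin-conjugating enzyme of that machinery, was at 67.2, 95.4, 128 and 49.6 and then at 39.2, 73.2, 20.01 and 49.2 (-0.85, SE 0.43, adjusted p = 0.374). In both genes line 3 lay below all other libraries while line 4 was almost level, and the interval of the fold change included 0.

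The kinesin KIF20A, a motor of cytokinesis, had the largest fitted difference of the 43, with 52.6, 119, 102 and 73.6 normalised CPM at baseline and 33.8, 42.4, 16.7 and 74.4 with IL4 (log2 fold change -1.09, SE 0.42, adjusted p = 0.282). CENPF, a large kinetochore protein, was at 318, 400.03, 354 and 339.9 and then at 166, 195, 77.2 and 333 (-0.97, SE 0.34, adjusted p = 0.247). The spindle pole protein ASPM was at 179, 378, 165 and 346 and then at 93.6, 229, 42.9 and 264 (-0.92, SE 0.27, adjusted p = 0.18). ASPM was lower in 4 of 4 lines, whereas KIF20A and CENPF of line 4 were level.

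MKI67, which coats mitotic chromosomes and marks cycling cells, was at 952, 1497, 1158 and 1009 normalised CPM at baseline and at 590.1, 982, 185 and 1042.5 with IL4 (log2 fold change -0.86, SE 0.44, adjusted p = 0.377). TOP2A, the topoisomerase that untangles sister chromatids, was at 377, 543, 397 and 512 and then at 194, 373, 98.4 and 459 (-0.83, SE 0.31, adjusted p = 0.268). AAVS IL4 line 3 held the lowest MKI67 and TOP2A values of all 16 libraries.

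For the replication genes the differences were smaller, with a median of -0.47 over the 13 against -0.73 over the 30 mitosis genes, and of -0.36 over the 6 MCM subunits. MCM2 was at 81.8, 278, 136 and 91.7 normalised CPM at baseline and at 67.4, 274.5, 47.1 and 73.3 with IL4 (log2 fold change -0.45, SE 0.27, adjusted p = 0.432). MCM4 had the largest difference of the helicase subunits, from 196, 515, 244 and 189 to 133, 381, 61.7 and 167 (-0.70, SE 0.31, adjusted p = 0.332). PCNA went from 94.5, 267, 110.4 and 86.9 to 71.9, 264, 38.8 and 80.7 (-0.42, SE 0.27, adjusted p = 0.458). MCM2 and PCNA were almost level in line 2 and lowest in line 3.

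E2F2, a transcription factor that switches on S phase genes, was at 57.5, 141, 91.7 and 92.1 normalised CPM at baseline and at 38.4, 91.4, 16.2 and 66.3 with IL4 (log2 fold change -0.94, SE 0.36, adjusted p = 0.278). TYMS, which makes thymidylate, was at 69.1, 143, 105 and 73.4 and then at 42.7, 148, 26.4 and 58.7 (-0.65, SE 0.33, adjusted p = 0.374). E2F2 was lower in 4 of 4 lines and TYMS in 3 of 4.

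**Figure D3:**
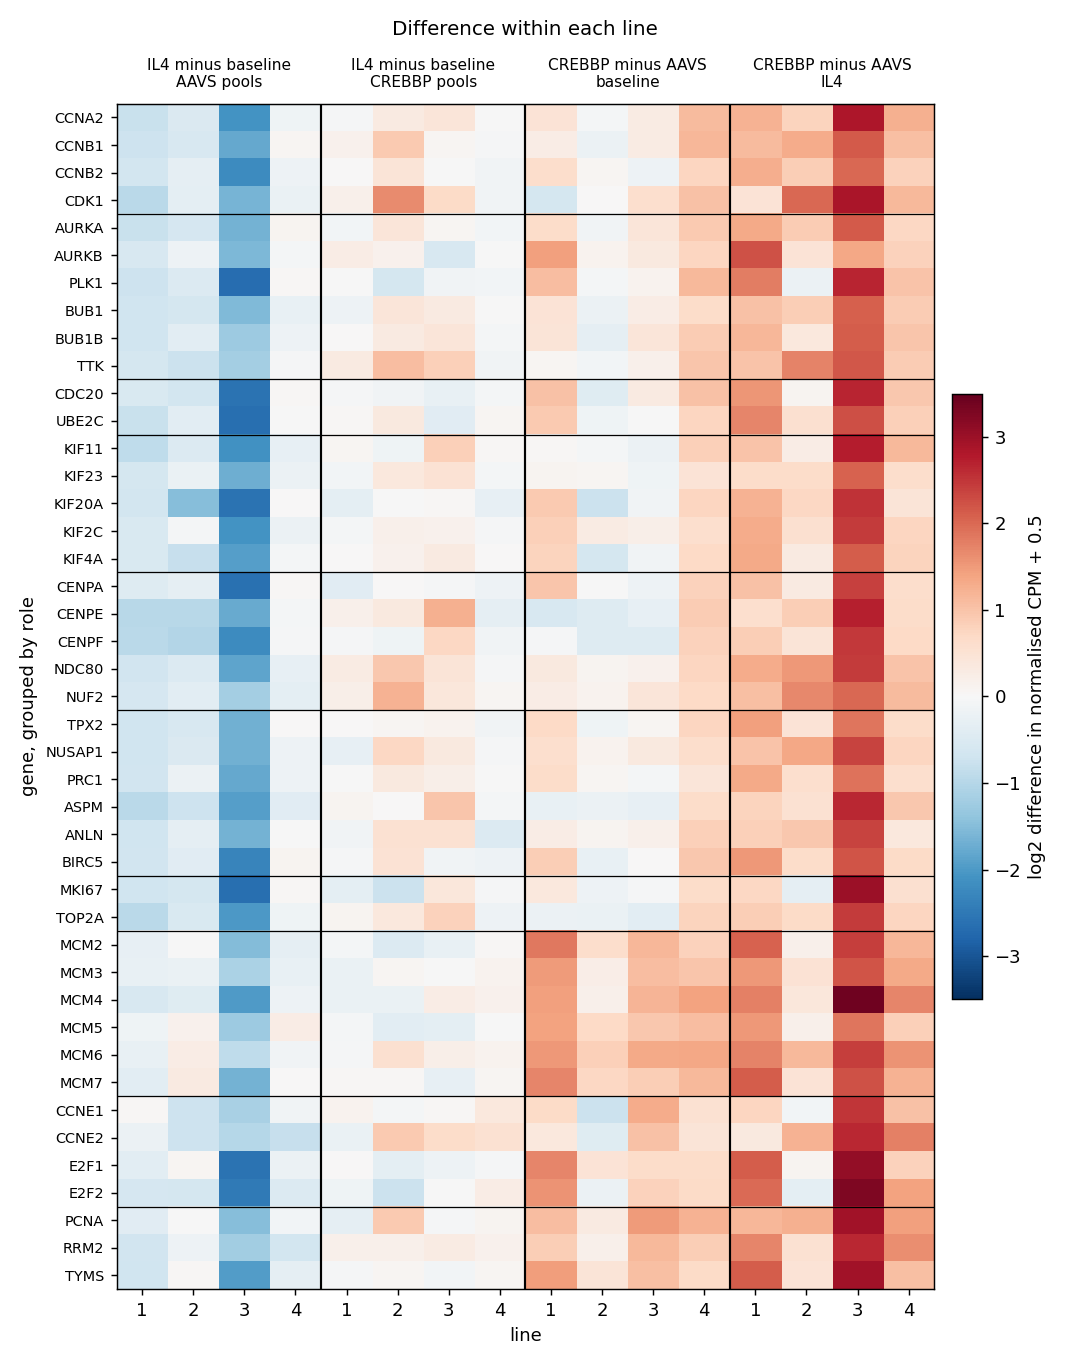
Log2 difference in normalised CPM + 0.5 for each of the 43 genes (rows, grouped by role, black lines between roles) in lines 1 to 4 (columns) for IL4 minus baseline in the AAVS and CREBBP pools and for CREBBP minus AAVS at baseline and with IL4 (blue, lower; red, higher). Line 3 carries the deepest blue of the AAVS IL4 block and the deepest red of the last block. At baseline the MCM, PCNA, RRM2 and TYMS rows are red in 4 of 4 lines, and red is also seen in other rows, such as E2F1 and AURKB of line 1.

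In the CREBBP pools, IL4 was likewise compared with baseline. The log2 fold changes of the 43 genes ran from -0.24 for PLK1 to 0.56 for CDK1, with a median of 0.08 beside -0.04 over all genes tested, and no gene passed the test. By edgeR's quasi-likelihood test 0 were called (0% of the 18282 genes tested were called in either direction), and DESeq2 called 0, with 0 genes of the whole table higher and 1 lower. At an unadjusted p under 0.05 the checkpoint kinase TTK was the only one of the 43 (higher, against 1.44% of all genes), with 40.5, 78.9, 44.7 and 87.05 normalised CPM at baseline and 50.7, 167, 79.8 and 79.5 with IL4 (log2 fold change 0.50, SE 0.21, adjusted p = 0.924). The line medians of the 43 genes were -0.03, 0.19, 0.19 and -0.03. In 4 of 4 lines, 3 genes were higher and 3 lower, against 8.49% and 6.12% of all genes.

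CDK1 had the largest estimate, 0.56 (SE 0.27, adjusted p = 0.924), with 37.02, 87.3, 65.01 and 195 normalised CPM at baseline and 41.7, 276, 103 and 180.1 with IL4, and line 2 had the largest difference. MKI67 was at 1238, 1320.3, 1119.9 and 1579 and then at 978, 784, 1479 and 1529 (-0.22, SE 0.23, adjusted p = 0.925). The 95% intervals were -0.05 to 1.17 for CDK1 and -0.73 to 0.29 for MKI67, both of which include 0.

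The CREBBP and AAVS pools were compared at baseline. The estimates were larger for the replication genes than for the mitosis genes. The median log2 fold change was 0.99 over the 13 replication genes and 0.38 over the 30 mitosis genes, where the median of all genes tested was -0.03. None of the 43 passed edgeR's quasi-likelihood test, in which 0% of the 18936 genes tested were called higher or lower. At an unadjusted p under 0.05, 11 of the 13 replication genes and 7 of the 30 mitosis genes were higher, against 6.34% of all genes, and 0 of the 43 were lower, against 6.45%. Of the replication and mitosis genes, 10 of 13 and 6 of 30 were higher in 4 of 4 lines, against 8.48%. DESeq2's Wald test called 10 higher, against 1.76% of all genes, all of them replication genes: the 6 MCM subunits, PCNA, RRM2, TYMS and E2F1. The 18 genes with a CHR in the promoter had a median of 0.34 and the 11 with an E2F motif a median of 0.96, as a description. The AAVS IL4 libraries take no part in this comparison.

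The 6 MCM subunits were higher in 4 of 4 lines and their log2 fold changes lay between 0.99 and 1.31, with line medians of 1.51, 0.66, 1.13 and 1.11. MCM6 (ENSG00000076003, chr2:135839626-135876443 on the minus strand of GRCh38) was at 80.7, 289.7, 111 and 91.3 normalised CPM in AAVS lines 1 to 4 and at 231.5, 521, 279 and 232 in the CREBBP pools, a log2 fold change of 1.31 (SE 0.20, adjusted p = 0.15). MCM2 was at 81.8, 278, 136 and 91.7 and at 296, 429, 306 and 160.05 (1.16, SE 0.24, adjusted p = 0.207). In MCM6 and MCM2 alike, AAVS line 2 was higher than at least 1 CREBBP library of another line, so that the groups overlapped although each line differed in the same direction.

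The helicase is loaded as a ring of all 6 subunits, and the other 4 gave like values. MCM7 had a log2 fold change of 1.15 (SE 0.22, adjusted p = 0.166), MCM5 of 1.08 (SE 0.20, adjusted p = 0.15), MCM4 of 1.10 (SE 0.25, adjusted p = 0.211) and MCM3 of 0.99 (SE 0.24, adjusted p = 0.22). Among the clamp and nucleotide enzymes, PCNA was at 94.5, 267, 110.4 and 86.9 normalised CPM in AAVS and at 200.1, 333, 311 and 202 in CREBBP pools (1.07, SE 0.23, adjusted p = 0.207). RRM2, a subunit of ribonucleotide reductase, was at 124, 257, 117 and 194 and at 225, 288, 260.4 and 349 (0.80, SE 0.22, adjusted p = 0.224). TYMS gave 0.96 (SE 0.22, adjusted p = 0.218). PCNA, RRM2 and TYMS were higher in 4 of 4 lines, least in line 2.

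The E2F factors and E cyclins all had estimates above 0, from 0.42 to 0.91, but differed between lines, with line medians of 1.12, -0.31, 0.91 and 0.58. E2F1, named after its values were seen, was at 40.03, 55.5, 77.5 and 58.3 normalised CPM in AAVS and at 133, 77.97, 122 and 90.7 in CREBBP pools, with no overlap between the groups (log2 fold change 0.91, SE 0.24, adjusted p = 0.224). The only other of the 43 without overlap was the kinesin KIF2C, at 62.3, 99.1, 93.9 and 93.6 and at 112, 122, 109 and 139.6 (0.53, SE 0.20, adjusted p = 0.334), making 2 of 43 against 0.771% of all genes, and 0 of 43 lay wholly lower, against 1.04%. KIF2C too was named after its values were seen. E2F2 gave 0.75 (SE 0.27, adjusted p = 0.33) but was slightly lower in line 2.

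The mitosis genes differed in sign between lines. Their median log2 difference was 0.48 in line 1, -0.12 in line 2, 0.09 in line 3 and 0.77 in line 4. Fitted over the 4 lines, 29 of the 30 estimates were above 0 and 1 was below. The 6 mitotic and checkpoint kinases ran from 0.32 to 0.70, and the 4 genes of the mitotic cyclins and CDK1 from 0.29 to 0.50. MKI67 gave 0.24 (SE 0.21, adjusted p = 0.655), TOP2A 0.04 (SE 0.22, adjusted p = 0.96), CENPF 0.00 (SE 0.24, adjusted p = 0.997) and ASPM 0.02 (SE 0.21, adjusted p = 0.981). TOP2A was at 377, 543, 397 and 512 normalised CPM in AAVS and at 329.7, 466, 306 and 878 in CREBBP pools, lower in 3 lines and higher in line 4. The balance of the roles moved the same way in 4 of 4 lines. The mean log2 level of the 13 minus that of the 30 was -0.41, 0.22, -0.34 and -0.47 in AAVS baseline lines 1 to 4 and 0.46, 0.62, 0.67 and -0.37 in CREBBP baseline.

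**Figure D4:**
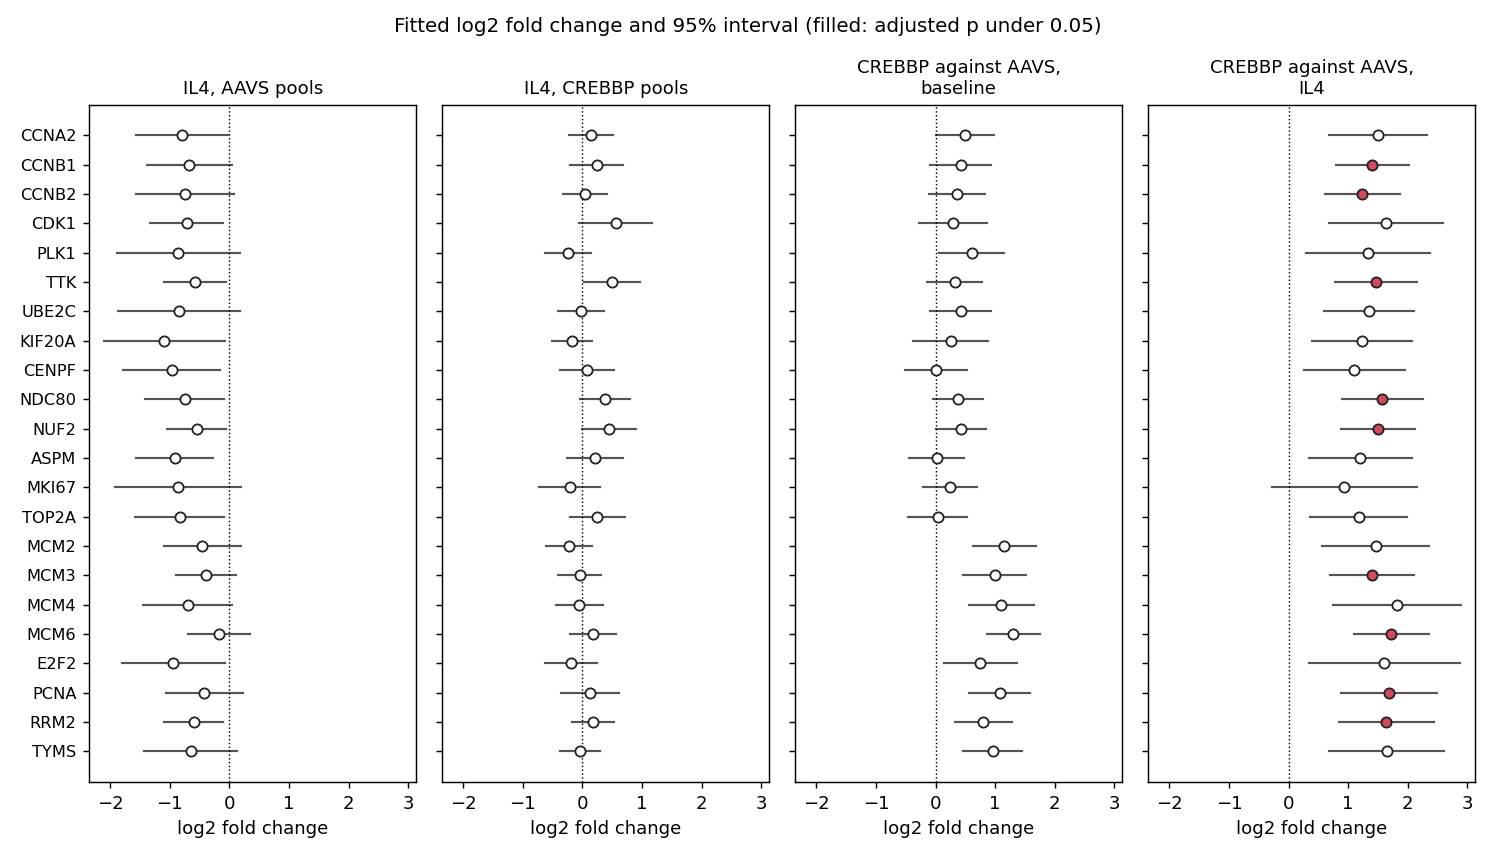
Fitted log2 fold change (points) with 95% interval (bars) of 22 of the 43 genes in 4 comparisons (x axis, log2 fold change; dotted line, 0; filled points, adjusted p under 0.05). At baseline the MCM, PCNA, RRM2 and TYMS points lie apart from 0, while MKI67, TOP2A, CENPF and ASPM lie near it. The mitotic cyclin, CDK1, PLK1 and TTK points lie from 0.29 to 0.70 at baseline. With IL4 the 9 filled points lie between 1.24 and 1.72.

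With IL4 the CREBBP pools were again compared with the AAVS pools. All 43 genes had higher estimates in the CREBBP pools, from 0.94 to 1.81 with a median log2 fold change of 1.27, and 9 passed edgeR's quasi-likelihood test: CCNB1, CCNB2, TTK, NDC80, NUF2, MCM3, MCM6, PCNA and RRM2. Of all 19581 genes tested, 0.965% were called higher, 3.42% lower and 4.39% in either direction. At an unadjusted p under 0.05, 41 of the 43 were higher, against 10.8% of all genes, and DESeq2's Wald test called 41 higher, against 7.85%. In 39 of 43 genes the CREBBP pool was higher in 4 of 4 lines (15% of all genes), and for 18 of 43 the CREBBP values all lay above the AAVS values (3.78% of all genes, beside 9.14% for which they all lay below). The line medians were 1.28, 0.56, 2.42 and 0.88. This comparison shares the AAVS IL4 libraries with that of IL4 in the AAVS pools. The markers of naive or memory B cells, T cells and NK cells given above were higher in its AAVS group too. The part of these markers in the 9 calls was not tested.

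CCNB1 (ENSG00000134057, chr5:69167135-69178245, plus strand), at 63.8, 117, 36.1 and 82.7 normalised CPM in AAVS IL4, was at 138, 288, 162 and 173 in CREBBP IL4 (log2 fold change 1.41, SE 0.26, adjusted p = 0.0355). CCNB2 (ENSG00000157456, chr15:59105126-59125045, plus strand), the second B-type cyclin, was at 57.3, 102, 33.97 and 88.3 and at 140.2, 183, 137 and 154 (1.24, SE 0.27, adjusted p = 0.0482). TTK (ENSG00000112742, chr6:80003887-80042527, plus strand), which starts the spindle checkpoint, was at 25.1, 49.8, 17.2 and 42.96 and at 50.7, 167, 79.8 and 79.5 (1.47, SE 0.29, adjusted p = 0.0412). In all 3 genes every CREBBP value lay above every AAVS value.

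NDC80 and NUF2 form a pair within the complex that grips microtubules at the kinetochore. NDC80 (ENSG00000080986, chr18:2571557-2616635, plus strand) was at 27.9, 41.3, 17.1 and 55.8 normalised CPM in AAVS IL4 and at 68.7, 119, 94.5 and 113 in CREBBP IL4 (log2 fold change 1.575, SE 0.29, adjusted p = 0.0345). NUF2 (ENSG00000143228, chr1:163266576-163355764, plus strand) was at 14.5, 30.5, 9.85 and 26.1 and at 30.9, 98.985, 41.3 and 57.2 (1.498, SE 0.26, adjusted p = 0.031). Neither gene overlapped between the groups. Their partner SPC25, from a wider list of mitosis genes, was at 5.03, 11.7, 3.93 and 11.1 and at 17.8, 37.1, 20.9 and 26.02 (1.78, SE 0.29, adjusted p = 0.0266).

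Among the replication genes, MCM6 was at 67.5, 347, 60.1 and 83.7 normalised CPM in AAVS IL4 and at 225, 766, 322 and 252 in CREBBP IL4 (log2 fold change 1.72, SE 0.27, adjusted p = 0.0237), the smallest adjusted p of the 43. MCM3 (ENSG00000112118, chr6:52264014-52284881, minus strand) was at 93.1, 298, 71.3 and 95.7 and at 268, 427, 329.8 and 243 (1.40, SE 0.30, adjusted p = 0.0473). PCNA (ENSG00000132646, chr20:5114953-5126626, minus strand) was at 71.9, 264, 38.8 and 80.7 and at 161, 623, 303 and 217 (1.68, SE 0.35, adjusted p = 0.0431). RRM2 (ENSG00000171848, chr2:10120698-10211725, plus strand) was at 77.9, 225, 50.2 and 125 and at 256, 329, 316 and 389 (1.64, SE 0.34, adjusted p = 0.0448). RRM2 did not overlap between the groups, whereas AAVS line 2 kept the other 3 overlapping.

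For the other 34 genes the adjusted p lay above 0.05. CDK1 gave 1.64 (SE 0.41, adjusted p = 0.0676), MCM4 1.81 (SE 0.46, adjusted p = 0.0692), TOP2A 1.18 (SE 0.35, adjusted p = 0.0953) and MKI67 0.94 (SE 0.52, adjusted p = 0.297). MKI67 and PLK1 were lower in the CREBBP pool of line 2 and higher in the other lines. The 9 calls rested on the choice of fit. Leaving out line 1, 3 or 4 gave 0 calls, where 0, 0 and 6 of all genes were called higher. Leaving out line 2 gave 31, where 886 of all genes were called higher. Without lines 1 and 3 the median was 0.74, with 2 lines left to test.

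The last comparison asks whether the change with IL4 differed between the CREBBP and AAVS pools, fitted over all 16 libraries. The median difference over the 43 genes was 0.84 on the log2 scale, above 0 for all 43, and by edgeR's quasi-likelihood test 0 were called, where 0.0182% of the 21932 genes tested were called higher and 0.62% lower (0.638% in all). At an unadjusted p under 0.05, 21 were higher, 19 of them mitosis genes, against 5.5% of all genes, and 0 were lower, against 7.84%. In addition, 23 were higher in 4 of 4 lines, against 12.5%. DESeq2 called 7 higher, against 0.905% of all genes: ASPM, NDC80, TTK, CENPE, NUF2, RRM2 and CCNE2. The line medians were 0.64, 0.69, 2.18 and 0.12, and without line 3 the fitted median was 0.48. For MCM5 the difference was 0.05 (SE 0.34, adjusted p = 0.965) and for MCM6 0.45 (SE 0.30, adjusted p = 0.538), whereas TTK gave 1.18 (SE 0.33, adjusted p = 0.166) and CDK1 1.38 (SE 0.43, adjusted p = 0.208).

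Wider lists of cell cycle genes were read from the same fits. Of 56 other mitosis genes, 54 were tested, with median log2 fold changes of -0.66 for IL4 in the AAVS pools, 0.08 for IL4 in the CREBBP pools, 0.43 at baseline and 1.15 with IL4 between CREBBP and AAVS pools. The 63 other replication genes had medians of -0.36, 0.10, 0.79 and 1.27 in the same order. At baseline 56 of the 63 replication genes and 23 of the 54 mitosis genes were higher at an unadjusted p under 0.05, against 6.34% of all genes, and 0 of either list were called. With IL4 the test called 16 of the 54 and 25 of the 63 higher, against 0.965% of all genes, and 0 lower, against 3.42%. For IL4 in the AAVS pools, 0 genes of either list were called by edgeR's test, where 0.0148% of all genes were called lower and 2.39% higher. At an unadjusted p under 0.05, 21 mitosis and 10 replication genes were lower there, against 3.63% of all genes. For IL4 in the CREBBP pools 0 were called, against 0% of all genes. At that unadjusted p 1 of each list was higher, against 1.44%.

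The mitosis genes with the smallest adjusted p were HMMR, a spindle protein, PBK, a mitotic kinase, ZWINT of the kinetochore, SPC25 and the condensin subunit NCAPG. HMMR was at 30.4, 111, 36.2 and 50.001 normalised CPM in AAVS baseline, at 19.7, 55.9, 16.5 and 28.1 in AAVS IL4, at 44.7, 97.4, 56.7 and 84.7 in CREBBP baseline and at 53.6, 188, 86.7 and 103 in CREBBP IL4. It was the 1 gene of the list called for the difference in response (log2 difference 1.42, SE 0.25, adjusted p = 0.0351), and between CREBBP and AAVS pools with IL4 it was higher by 1.87 (SE 0.24, adjusted p = 0.0127). With IL4 the same comparison gave 1.76 for PBK (adjusted p = 0.0186), 1.35 for ZWINT (adjusted p = 0.0248) and 1.48 for NCAPG (adjusted p = 0.0346).

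The replication genes with the smallest adjusted p were RFC3, a subunit of the clamp loader, CDC6, which helps to load the MCM ring, GMNN, which blocks reloading, the primase PRIM1 and the kinase CDC7. RFC3 was at 28.4, 59.8, 20.01 and 52.9 normalised CPM in AAVS IL4 and at 91.6, 161, 127 and 182 in CREBBP IL4 (log2 fold change 1.89, SE 0.26, adjusted p = 0.0171), with no overlap. CDC6 gave 1.79 (SE 0.26, adjusted p = 0.0186), GMNN 1.51 (SE 0.22, adjusted p = 0.0204), PRIM1 1.72 (SE 0.27, adjusted p = 0.0237) and CDC7 1.43 (SE 0.22, adjusted p = 0.0237).

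Of 31 G1 regulators and CDK inhibitors, genes that hold cells before S phase or move them past it, 30 were tested in the comparisons that use the AAVS IL4 libraries. KLF2, a transcription factor of resting lymphocytes, was the 1 gene called for IL4 in the AAVS pools, at 0.316, 0.6398, 0.649 and 0.405 normalised CPM at baseline and at 37.5, 13.99, 77.6 and 11.3 with IL4 (log2 fold change 5.82, SE 0.60, adjusted p = 0.0095). Over all genes tested, 2.39% were called higher there. Between CREBBP and AAVS pools with IL4, KLF2 (-6.47, SE 1.05, adjusted p = 0.0252), the D cyclin CCND2 (-3.24, SE 0.59, adjusted p = 0.0334) and the CDK inhibitor CDKN1A (-1.62, SE 0.30, adjusted p = 0.0355) were the 3 called lower. In that comparison 3.42% of all genes tested were called lower. CCND2 was at 45.3, 8.98, 112 and 7.83 in AAVS IL4 and at 3.87, 1.86, 2.996 and 1.91 in CREBBP IL4, and CDKN1A at 54.6, 25.9, 101 and 29.6 and at 23.05, 11.4, 18.8 and 9.49. The inhibitor CDKN2C (1.301, SE 0.30, adjusted p = 0.0546) and the G1 kinase CDK4 (1.15, SE 0.27, adjusted p = 0.057) did not pass. KLF2 was highest in AAVS IL4 line 3, then lines 1, 2 and 4, the order of the naive or memory B cell marker sums, and that relation was not tested.

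Reads of 14 of the 43 genes could be shared with a gene on the opposite strand whose exons overlap, since the setting for strand in counting is not given in the sources used here, although the study's methods, as described for primary cells and referred to for the lines, name a stranded library kit. The partner codes for protein in 9 of them, such as ENOSF1 for TYMS, EXOSC9 for CCNA2 and AP4M1 for MCM7. KIF4A has a close intronless copy, KIF4B, which was at 1 to 19 counts per library where KIF4A was at 397 to 5730, and whether they share reads was not tested.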

How the data were processed

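RNA-seq of ribosomal RNA-depleted RNA was done by the authors on 16 libraries from 4 lines, with 50 ng of RNA and 151 bp paired-end reads per the labels. After trimming with Cutadapt 2.3, the authors aligned the reads by STAR 2.7.8a (GRCh38) and obtained estimated counts per gene with RSEM 1.3.3, which they deposited without normalization. Reporter entries (4, with 0 counts) were left out, and 62639 of the 62710 genes (99.89%) were placed by GENCODE release 44.

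Counts were filtered with filterByExpr, scaled by TMM and tested with edgeR 4.0.16 (quasi-likelihood test, limma 3.58.1, R 4.3.3), with the line as a block, or a term for each pool for the difference in response. P-values were adjusted by Benjamini-Hochberg over all genes tested, with a threshold of 0.05. Levels are normalised CPM, and mean log2 levels add 0.5. Total counts ranged from 19649735 to 61981976. Libraries with one number come from one line, and their deviations from the group means correlated, with line medians of 0.533, 0.702, 0.267 and 0.648 in order. The weakest correlation, -0.12, was in line 3. No pair of libraries in a group was a copy (chi-square per degree of freedom 111 or more). The edgeR test of each comparison was checked on simulated counts, and DESeq2's Wald test was not.

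The genes, lists, motifs and rule for named genes were chosen with earlier results of these data known. Values in every library are given for genes that passed a test, for the largest difference with IL4 in the AAVS pools in each role, and for MKI67, TOP2A, CDK1, CCNB1, PCNA and MCM2, and up to 5 genes with the smallest adjusted p are named from each wider list. Alternatives were DESeq2 1.42.0 (Wald test), its size factors in edgeR, no filter, a minimum of 10 counts per library, a fit that ignores the line, 1 line omitted at a time, all 16 libraries in 1 fit, and, added after seeing the data, both line 1 and line 3 left out. The 5 comparisons share libraries and are given side by side.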

Additional observations from a re-analysis of the deposited data

Results flagged for a closer look

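In groups of 4 libraries, 17 of 168 sets of values had a highest or lowest library whose gap to the next, as a share of the whole range, was above Dixon's critical value for 4 values, which chance exceeds in about 1 of 20 sets. In 14 of the 17 it was the highest value and belonged to line 2. MCM6 had a share of 0.856 in AAVS baseline (289.7 normalised CPM in line 2, others at most 111), of 0.918 in AAVS IL4 (347, others at most 83.7) and of 0.835 in CREBBP baseline (521, others at most 279). In AAVS baseline line 2 also stood high for TTK (0.867), PCNA (0.869) and MCM4 (0.831), and in AAVS IL4 for MCM3 (0.892), MCM2 (0.885), CDC6 (0.921) and GMNN (0.834). In CREBBP IL4 it stood high for GMNN (0.897), PRIM1 (0.841) and KLF2 (0.906), and KLF2 did so in CREBBP baseline (0.918). The exceptions were CENPF, high in CREBBP baseline line 4 (0.848; 590.4 against at most 308), KIF2C, low in AAVS baseline line 1 (0.85; 62.3 against at least 93.6), and CDKN2C, low in CREBBP baseline line 2 (0.884; 19.6 against at least 53.2).

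The response to IL4 differed between CREBBP and AAVS pools by edgeR's quasi-likelihood test for HMMR (log2 difference 1.42, adjusted p = 0.0351) and for KLF2 (-5.54, adjusted p = 0.0124). Both use the AAVS IL4 libraries, in which markers of naive or memory B cells, T cells and NK cells were also higher. The part of these markers in the differences was not tested.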

How the results depend on the processing

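The median log2 fold change of the 43 genes kept its direction under all 54 alternatives tried, as did the 8 differences in mean level between groups under another scaling or sum. Of 108 counts of called genes under alternatives, 92 were within 1.5 times the reported count and 16 were not. Nearly all of the 92 set 0 calls beside 0 calls, so they say little about stability. The 9 calls of CREBBP against AAVS with IL4 stayed within 1.5 times only with DESeq2's size factors in edgeR, at 13 (237 of all genes higher and 689 lower). For CREBBP against AAVS with IL4 the 9 calls (189 of all genes higher and 670 lower) became 41 with no filter (1066 and 2400), 14 with at least 10 counts in every library (230 and 452), 41 with DESeq2's Wald test (1538 and 2616) and 40 with all 16 libraries in 1 fit (1812 and 2581). They became 0 with no replicate block, where the pairing by line is ignored (17 and 523), and 0 without lines 1 and 3 (0 and 6). Leaving out 1 line gave 0 to 31 calls, with 31 without line 2 (886 and 1661) and 0 without line 1 (0 and 104), line 3 (0 and 25) or line 4 (6 and 309). At baseline the 0 calls (0 of all genes in either direction) became 9 with no filter (249 of all genes higher and 337 lower) and 10 with DESeq2 (262 and 252), and 0 to 10 with 1 line left out, with 10 without line 2 (306 and 209). For IL4 in the AAVS pools DESeq2 gave 2 lower calls (257 of all genes lower), and for the difference in response the 0 calls (4 of all genes higher and 136 lower) became 9 with no filter (170 and 1021) and 7 with DESeq2 (183 and 917). The cause of these shifts was not tested. The log2 fold changes of the 9 called genes lay between 0.86 and 2.02 over the alternatives, with a highest adjusted p of 0.48, and of 99 such fits 54 kept the call. The lowest count of the 43 genes in a library was 31, and the part of depth in these calls was not tested.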
